A study of Rattus norvegicus with 10 samples.

Results

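The Fc receptors for immunoglobulin were followed in splenic M2 macrophages of the rat through a list of 7 genes, *Fcgr1a*, *Fcgr2a*, *Fcgr2b*, *Fcgr3a*, *Fcer1g*, *Fcgrt* and *Fcrl2*. The rule names these genes and uses no measured value, although results of these data were known when the list was made. Of these, 6 were among the 9003 genes of the expression table. *Fcrl2*, an Fc receptor-like gene, was not in the table under this symbol or under its RefSeq synonyms Fcrls and Msr2, and it was not analysed here.

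The study asked what happens to splenic M2 macrophages that take up membrane material from injected human adipose-derived mesenchymal stem cells (ASCs) in a rat model of glomerulonephritis. All rats were of the WKY/NCrj strain, and the nephritis model used young females. Control macrophages (n = 2) came from healthy rats. GN macrophages (n = 2) came from rats that had been given TF78, a mouse monoclonal antibody against the α4(IV) NC1 domain of the glomerular basement membrane, and no ASCs. The other 2 groups came from nephritic rats that were also given ASCs stained with DiD, a membrane dye, and were sorted into DiD-positive cells (EV+, n = 3) and DiD-negative cells (EV-, n = 3). DiD marks labelled membrane in or on a cell, and a cell without detectable dye may still have met ASC vesicles. The libraries were described as biological replicates, but the sources used here do not say whether an EV+ and an EV- library came from the same rat. Counts of libraries given below are therefore not counts of rats. The age and sex of the control rats and the day of the spleen harvest for sequencing were not given for these libraries in the sources used here. The nephritis was thus itself brought about by an IgG, a ligand of the receptors described here. In addition, the cells were enriched with a biotinylated antibody to CD11b/c and blocked with an antibody to CD32, the protein that *Fcgr2b* encodes, before sorting, in every group.

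Fcγ receptors bind the constant part of IgG and so link antibody to the macrophage. The activating receptors, which include the high-affinity FcγRI and the low-affinity FcγRIII and FcγRIV, signal through the common γ chain encoded by *Fcer1g*, whose ITAM motif recruits the kinase Syk and leads to phagocytosis, an oxidative burst and cytokine release. FcγRIIB carries an ITIM motif instead, recruits the phosphatase SHIP and restrains the activating receptors, and the balance between the 2 kinds is a known determinant of antibody-mediated nephritis. The neonatal receptor FcRn, encoded by *Fcgrt*, works inside the cell and returns IgG from endosomes to the surface.

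Levels are TMM-normalized read counts scaled to library size (CPM), as the authors deposited them, and are given as the mean ± SD of a group's libraries. All values came out as whole reads when divided by the worth of a single read, so read numbers could be recovered. The libraries held between 19270515 and 26617093 reads, and 3 reads, taken as the detection floor, corresponded to between 0.113 and 0.153 CPM, a floor that covers counting error only. Differences between groups are limma log2 fold changes of CPM + 1, with a standard error (SE) and a p-value adjusted over all 9003 genes, and a gene was called at an adjusted p under 0.1. CPM are not corrected for transcript length, so the levels of different receptors are not compared.

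Defining markers of macrophages were abundant in every library. *Csf1r* lay between 5800 and 8155 CPM, *Adgre1* between 1025 and 1491 CPM and *Cd68* between 1163 and 1466 CPM. *Cd163* and *Mrc1*, which are widely used as markers of M2 macrophages, lay between 0 and 1.81 CPM, so the M2 label, which rests on the sort, had little counterpart in these transcripts. A single library stood apart in the markers of natural killer (NK) and T cells. EV- replicate 1 had a summed level of 861 CPM over the 17 NK and T cell markers of the table (of 22 listed), against 171 to 194 CPM in the other EV- libraries and 110 to 215 CPM in all others, and the main values of the members in EV- are also given without it. By reads over all genes, EV+ replicate 2 was the EV+ library least like the others of its group. Its chi-square per degree of freedom was 45.4 against replicate 1 and 26.6 against replicate 3, and 14.8 between those. Most values of the members in EV+ are not given without it.

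Among the Fc receptors, *Fcgr2b* and *Fcgr3a* differed between groups. In nephritic rats without ASCs, *Fcgr2b*, the inhibitory receptor, was 5.89-fold higher than in control by the ratio of mean CPM, and *Fcgr3a*, an activating receptor, was lower, at 0.684 times its control level. Both were called among the 4 groups, with limma adjusted p-values of 0.0170 for *Fcgr2b* and 0.00684 for *Fcgr3a*. Each of these calls rested on 1 control library, since the adjusted p of *Fcgr2b* was 0.111 without control replicate 1 and that of *Fcgr3a* 0.160 without control replicate 2. The other 4 members, *Fcer1g*, *Fcgr1a*, *Fcgr2a* and *Fcgrt*, were not called, with adjusted p-values of 0.686, 0.804, 0.943 and 0.348. By this test among the 4 groups, 2.57% of all genes were called.

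**Figure D1:**
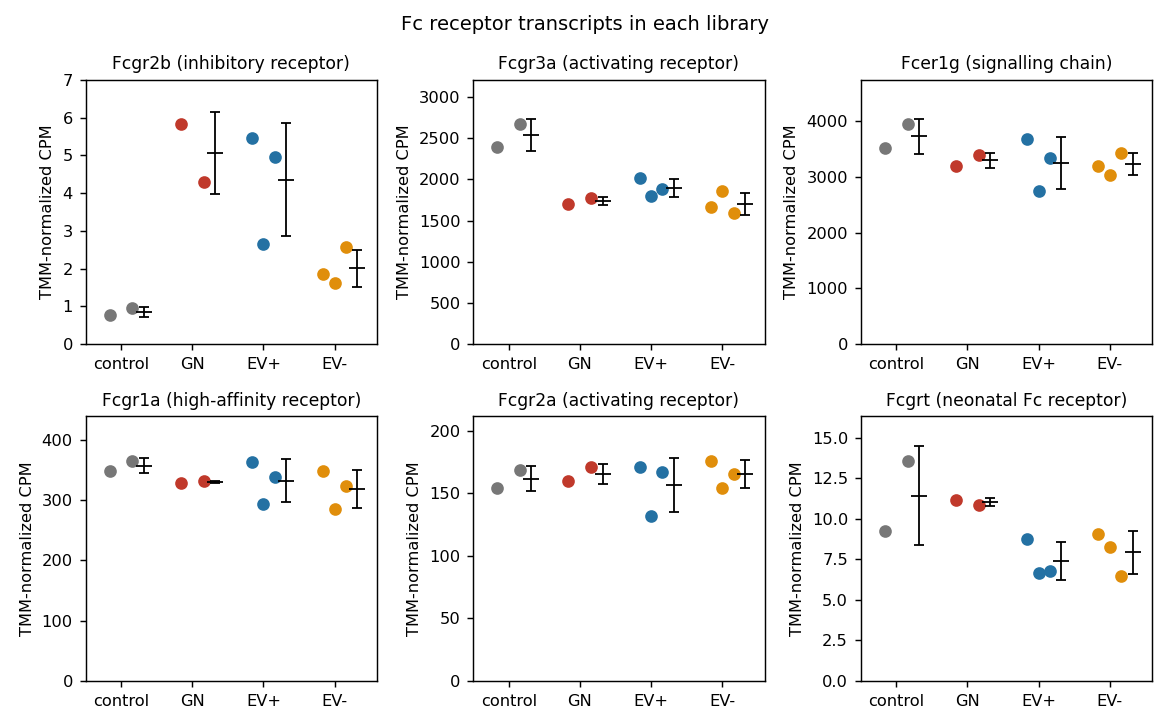
Level of the 6 Fc receptor transcripts in each library, in TMM-normalized CPM on linear axes that start at 0 and differ between panels. Each point is a library of the control (n = 2), GN (n = 2), EV+ (n = 3) or EV- (n = 3) group, and the bar beside the points is the mean ± SD. *Fcgr2b* lies under 1 CPM in both control libraries and between 1.63 and 5.84 CPM in the others, and *Fcgr3a* is highest in the control libraries.

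*Fcgr2b* encodes FcγRIIB (CD32), the only inhibitory member. In the control libraries it stood at 0.770 and 0.949 CPM, which were 20 and 23 reads, and in the GN libraries at 5.84 and 4.29 CPM, which were 148 and 114 reads. The 3 EV+ libraries had 5.47, 2.65 and 4.95 CPM, and the 3 EV- libraries had 1.85, 1.63 and 2.57 CPM. Every library from a nephritic rat was thus above both control libraries, a separation whose share over all genes was not computed. The GN and EV+ values overlapped, and the EV- values all lay under the GN and EV+ values, although the lowest EV+ library (2.65 CPM) and the highest EV- library (2.57 CPM) nearly met. The group means were 0.860 ± 0.126 in control, 5.07 ± 1.09 in GN, 4.36 ± 1.4996 in EV+ and 2.02 ± 0.491 CPM in EV-. *Fcgr2b* passed the authors' filter, a maximum of at least 1 CPM, only through the nephritic groups, since both control values were under 1 CPM.

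Against control, *Fcgr2b* rose in GN, with a log2 fold change of 1.70 (SE 0.303, limma adjusted p = 0.0137, 95% interval 1.05 to 2.35). The added 1 CPM makes this smaller than the change in reads, for which edgeR's quasi-likelihood test gave a log2 fold change of 2.55 (adjusted p = 0.0188) and DESeq2 gave 2.56 (adjusted p = 4.35e-05). In EV+, it rose against the same control libraries by 1.49 (SE 0.276, limma adjusted p = 0.0110). In EV-, the difference from control was 0.69 (SE 0.276, 95% interval 0.09 to 1.28) and was not called (limma adjusted p = 0.295), and without EV- replicate 1 it was 0.72 (adjusted p = 0.357). The call in GN depended on single libraries. Without GN replicate 1 the adjusted p was 0.165, and without control replicate 1 it was 0.1004, just past the threshold.

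Between the groups of nephritic rats, no difference in *Fcgr2b* was called. The EV- mean was 0.398 times the GN mean in CPM. On the log2 scale of CPM + 1, which shrinks differences at this level, the change was -1.01 (SE 0.276, 95% interval -1.60 to -0.42), with an unadjusted limma p of 0.00267 and an adjusted p of 0.290, and on reads it was -1.32 by both edgeR (adjusted p = 0.337) and DESeq2 (adjusted p = 0.121). Without EV- replicate 1 the limma value was -0.97 (adjusted p = 0.342). The EV+ mean was 2.16 times the EV- mean in CPM. The log2 fold change of CPM + 1 was 0.80 (SE 0.247, 95% interval 0.27 to 1.33), with an unadjusted p of 0.00613 and a limma adjusted p of 0.934, and it was 0.76 without EV- replicate 1. On reads the value was 1.10 by edgeR (adjusted p = 0.910) and 1.11 by DESeq2 (adjusted p = 0.403). EV+ and GN differed by -0.21 (SE 0.276, 95% interval -0.80 to 0.38, limma adjusted p = 0.928), and this difference turned to 0.04 without EV+ replicate 2. With the replicate number as a block, the adjusted p of EV+ against EV- was 0.692, and in a fit of these 6 libraries alone with the block, chosen after the data were seen, it was 0.359.

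*Fcgr3a* encodes an activating low-affinity receptor. The symbol needs a caution, because RefSeq lists *Fcgr3a* as the gene known as Fcgr4 or CD16-2 and gives Fcgr3 and Fcgr3a as older names of *Fcgr2a*. The annotation of the rn6 assembly with which the authors counted may have used the names differently, and the table gives symbols without identifiers. In the current RefSeq annotation (GRCr8), *Fcgr2b*, *Fcgr3a*, *Fcgr2a* and *Fcgr2al1* lie next to each other in this order on chromosome 13, with *Fcer1g* further along the same chromosome, while *Fcgr1a* is on chromosome 2 and *Fcgrt* on chromosome 1. The low-affinity genes arose by duplication and share closely similar stretches, and WKY rats are known to differ from the reference strain in the copy number of an Fcgr3-related gene. How the authors' counting divided reads among these copies is therefore uncertain.

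The stretch of 250 bases before the RefSeq start of *Fcgr3a* is shown because this is the called member for which the RefSeq promoter table held an entry. It lies on the plus strand at chr13:85782386-85782635 of GRCr8 and has a GC content of 51.6%. Capitals mark a match, from -54 to -49 before the start, to the core of the binding motif of PU.1, the myeloid factor encoded by *Spi1*. The motif was searched as GAGGAA on both strands, and 23.3% of 33469 rat promoters of this length held it. The window held no match to the GAS motif TTCNNNGAA (7.67% of promoters), the AP-1 motif TGANTCA (6.34%) or the E-box CACGTG (5.59%). A match describes letters in the reference strain and not a bound site.
Fcgr3a promoter: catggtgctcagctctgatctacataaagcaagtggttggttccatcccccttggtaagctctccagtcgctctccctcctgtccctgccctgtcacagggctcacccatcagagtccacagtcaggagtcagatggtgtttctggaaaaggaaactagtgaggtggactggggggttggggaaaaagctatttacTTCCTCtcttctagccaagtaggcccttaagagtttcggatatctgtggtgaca

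The control libraries had 2397 and 2675 CPM of *Fcgr3a*, and the GN libraries had 1699 and 1772 CPM. The EV+ libraries had 2013, 1798 and 1878 CPM, and the EV- libraries had 1661, 1856 and 1594 CPM. Both control libraries were above all 8 libraries from nephritic rats, a separation whose share over all genes was not computed. The EV+ and EV- values overlapped. The group means were 2536 ± 196 in control, 1735 ± 51.3 in GN, 1896 ± 109 in EV+ and 1704 ± 136 CPM in EV-.

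*Fcgr3a* fell against control in all 3 nephritic groups, which were compared with the same 2 control libraries. In GN the log2 fold change was -0.55 (SE 0.0909, limma adjusted p = 0.009998, 95% interval -0.74 to -0.35). In EV+ it was -0.42 (SE 0.0830, limma adjusted p = 0.0160) and in EV- it was -0.57 (SE 0.0830, limma adjusted p = 0.00200). Without EV- replicate 1 the adjusted p in EV- was 0.0148. Without control replicate 2, the higher control library, *Fcgr3a* was no longer called in GN (adjusted p = 0.111) or in EV+ (0.235), and without GN replicate 1 it was not called in GN (0.132). No difference was called among the nephritic groups, with log2 fold changes of 0.13 for EV+ against GN, -0.03 for EV- against GN and 0.16 for EV+ against EV- and limma adjusted p-values of 0.834, 0.972 and 0.9997.

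**Figure D2:**
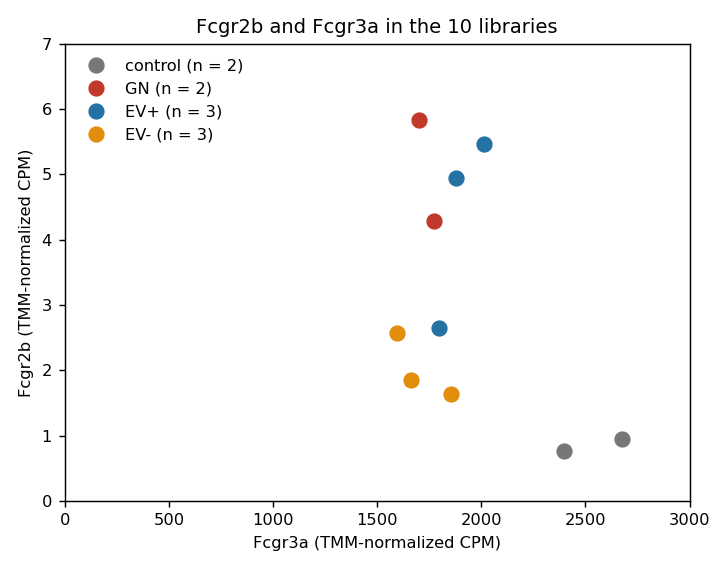
*Fcgr2b* (vertical) against *Fcgr3a* (horizontal) in each of the 10 libraries, both in TMM-normalized CPM on linear axes from 0. Points are libraries, coloured by group. The 2 control libraries lie apart at the lower right, GN and EV+ at the upper left and centre, and the EV- libraries below them at a similar level of *Fcgr3a*.

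The inhibitory and the activating receptor transcript can be set side by side within a library, where scaling cancels. For every 1000 reads on *Fcgr3a*, the control libraries had 0.321 and 0.355 reads on *Fcgr2b*, the GN libraries 3.44 and 2.42, the EV+ libraries 2.72, 1.48 and 2.64, and the EV- libraries 1.11, 0.879 and 1.61. The order was control, then EV-, then EV+ and GN, and EV+ overlapped with both EV- and GN. This ratio also takes in the fall of *Fcgr3a*. For every 1000 reads on *Fcgr1a*, control had 2.21 and 2.59 reads on *Fcgr2b* and GN 17.7 and 12.9. EV+ ranged from 9.03 to 15.0 and EV- from 5.30 to 7.94, without overlap. Over *Fcgr2a*, EV+ (20.1 to 31.9) and EV- (10.5 to 15.5) did not overlap either. Since read numbers grow with transcript length, each ratio compares libraries and gives no ratio of molecules.

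*Fcer1g* encodes the common γ chain, with which the activating receptors are assembled. The control libraries had 3514 and 3955 CPM and the GN libraries 3200 and 3395 CPM, and the EV+ libraries had 3676, 2744 and 3345 CPM and the EV- libraries 3207, 3042 and 3435 CPM. The values of control lay above those of GN and EV-, and EV+ overlapped with all. The difference of GN from control was -0.18 on the log2 scale (SE 0.117, 95% interval -0.43 to 0.07, limma adjusted p = 0.670), and those of EV+ and EV- from control were both -0.21 (adjusted p = 0.396 and 0.440), the latter also without EV- replicate 1 (adjusted p = 0.561). The number of *Fcgr3a* reads for each *Fcer1g* read was 0.682 and 0.676 in control, 0.531 and 0.522 in GN, 0.548, 0.655 and 0.562 in EV+, and 0.518, 0.610 and 0.464 in EV-. This within-library ratio was highest in the 2 control libraries.

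*Fcgr1a* encodes FcγRI (CD64), the high-affinity IgG receptor of macrophages. Its levels were 349 and 366 CPM in control, 329 and 332 CPM in GN, 364, 294 and 338 CPM in EV+, and 348, 286 and 323 CPM in EV-. The highest group mean was 1.12 times the lowest. All groups overlapped except control with GN and with EV-. The log2 difference of GN from control was -0.11 (SE 0.107, 95% interval -0.34 to 0.12, limma adjusted p = 0.795).

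*Fcgr2a*, which RefSeq describes as the FcγRIII gene, is the other low-affinity activating member. It had 154 and 169 CPM in control, 159 and 171 CPM in GN, 171, 132 and 167 CPM in EV+, and 176, 154 and 166 CPM in EV-. All groups overlapped, and the highest group mean was 1.06 times the lowest. The log2 difference of GN from control was 0.03, with a 95% interval of -0.22 to 0.29 (limma adjusted p = 0.960). Reads on *Fcgr3a* were 15.5 and 15.9 times those on *Fcgr2a* in control, 10.7 and 10.4 times in GN, 11.8, 13.6 and 11.3 times in EV+, and 9.43, 12.02 and 9.63 times in EV-. The neighbouring activating genes thus had unequal changes within the same libraries, with the caution on shared reads given above.

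*Fcgrt*, the neonatal Fc receptor, is an MHC class I-like protein and does not signal through the γ chain. It had 9.28 and 13.6 CPM in control, 11.2 and 10.8 CPM in GN, 8.79, 6.65 and 6.78 CPM in EV+, and 9.09, 8.26 and 6.46 CPM in EV-. All 6 libraries from ASC-treated rats were under the 4 others, although EV- replicate 1 (9.09 CPM) and control replicate 1 (9.28 CPM) nearly met. The share of all genes with this separation was not computed. EV+ and EV- overlapped. The log2 difference from GN was -0.53 in EV+ (SE 0.205, 95% interval -0.97 to -0.09, limma adjusted p = 0.647) and -0.44 in EV- (adjusted p = 0.638), or -0.53 without EV- replicate 1 (adjusted p = 0.584), and none was called. Against control, the values were -0.55 in EV+ (limma adjusted p = 0.221) and -0.47 in EV- (adjusted p = 0.344).

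**Figure D3:**
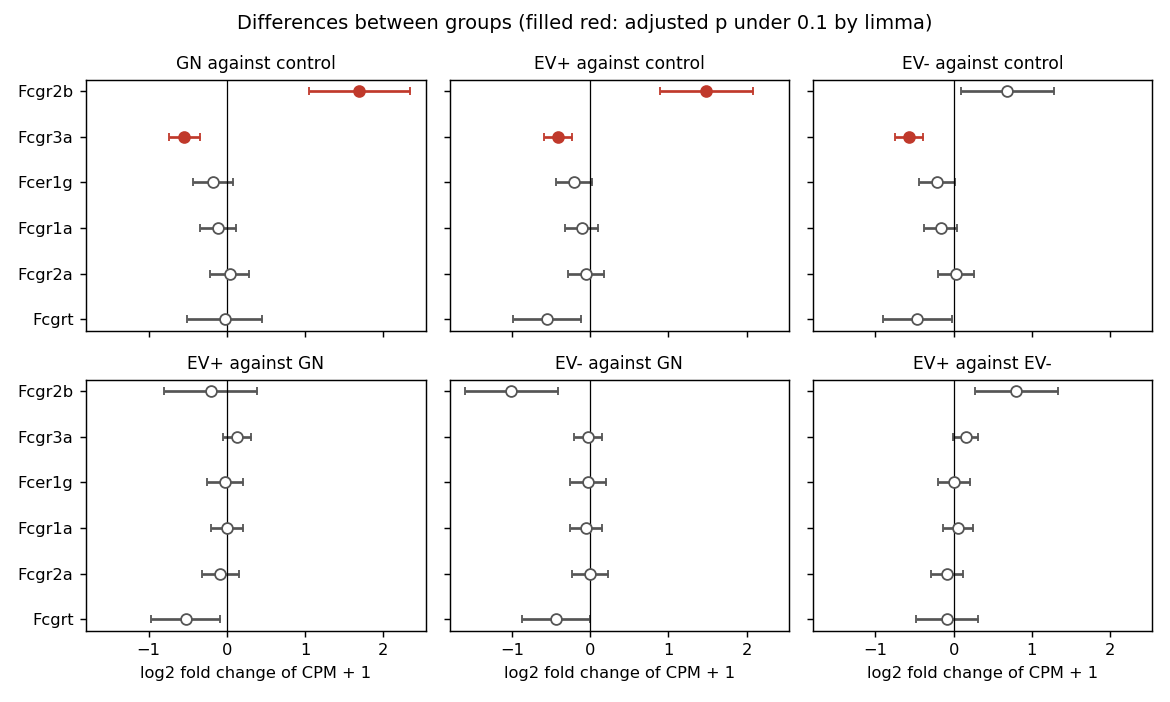
Log2 fold change of CPM + 1 of the 6 Fc receptor genes in each pair of groups, with 95% intervals from limma. Filled red points have an adjusted p under 0.1 and open points do not. *Fcgr2b* is called higher in GN and EV+ and *Fcgr3a* lower in GN, EV+ and EV- against control, and no point is filled in the panels that compare nephritic groups with each other.

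Read by comparison, 2 of 6 members were called in GN against control, where 1.75% of all genes were called, and 2 in EV+ against control, where 3.63% were. In EV- against control 1 member, *Fcgr3a*, was called, against 2.84% of all genes. No member was called by limma in EV+ against GN, EV- against GN or EV+ against EV-, in which 0.122%, 0.378% and 0.0222% of all genes were called. In each of these 3 comparisons 1 member had an unadjusted limma p under 0.05, which was *Fcgrt* in EV+ against GN and *Fcgr2b* in the other two. edgeR's quasi-likelihood test and DESeq2 also called 0 members in them, with 1, 1 and 2 members at an unadjusted p under 0.05 by either tool.

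The groups' values did not overlap for 4 members in GN against control, where this held for 43.9% of all genes, for 3 in EV+ against control (30.5%) and for 5 in EV- against control (29.1%). They did not overlap for 2 members in EV+ against GN (23.0%), for 2 in EV- against GN (25.4%) and for 1, *Fcgr2b*, in EV+ against EV- (8.91%). With groups this small, separation alone was common among genes. Over the members, the median log2 fold change of GN against control was -0.07 with 2 of 6 positive, and over all genes it was -0.00014.

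The members varied among themselves in how they moved from library to library. *Fcer1g* and *Fcgr1a* had the highest Pearson r of any pair of members over the 10 libraries on the log2 scale, 0.846, followed by *Fcer1g* and *Fcgr2a* with 0.700. *Fcgr2b* and *Fcgr3a* had the lowest, -0.557. These are descriptions over libraries of 4 groups that share scaling and depth. EV+ replicate 2 had the lowest *Fcer1g* and *Fcgr2a* of all 10 libraries, and it also had the lowest *Fcgr2b*, *Fcgr1a* and *Fcgr3a* of the EV+ group.

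The genes whose pattern was most like that of a member were sought by Pearson r over the 10 libraries among 7193 genes with a mean of at least 5 CPM. For *Fcgr2b* they were *Ifitm1* (r = 0.959), an interferon-induced membrane protein, and *Tmem176b* (0.958) and *Tmem176a* (0.954), a pair of related membrane proteins of myeloid cells. *Tmem176b* had 200 and 205 CPM in control, 341 and 376 in GN, 351, 311 and 356 in EV+, and 254, 253 and 267 in EV-. Since these genes were picked for their likeness to *Fcgr2b* over the same libraries, their levels are a description. For *Fcgr3a* they were *Klra17* (0.949), an Ly49-family lectin-like receptor, *Mettl7a* (0.949) and *Isg20l2* (0.943), and *Klra17* had 354 and 370 CPM in control against 259 to 303 CPM in all other libraries.

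The uncalled members had other company. For *Fcer1g* the genes near it included *Ccdc90b* (0.976) and the respiratory chain gene *Ndufb4* (0.975). For *Fcgr1a* they were the ribosomal protein gene *Rpl10* (0.966), *Myl12a* (0.959) and *Fam26f* (0.957), and for *Fcgr2a* the respiratory chain gene *Ndufb6* (0.986), the ATP synthase gene *Atp5g1* (0.965) and *Rbx1* (0.9498). For *Fcgrt* they were *Acot8* (0.958), *Bloc1s2* (0.942) and *Arf6* (0.924).

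Of 14 further genes of the Fc receptor family or with a known tie to antibody binding, 4 were in the table. None of the 4 was called in any comparison by limma, by edgeR's quasi-likelihood test or by DESeq2, and an unadjusted limma p under 0.05 was reached by *Trim21* in EV- against control and by none of them in the other pairs of groups. *Fcmr*, the IgM receptor, had means of 1.40 in control, 1.202 in GN, 1.90 in EV+ and 2.52 CPM in EV-, where the libraries ranged from 0.612 to 5.15 CPM. *Trim21*, a cytosolic antibody receptor, had means of 26.3, 25.5, 24.9 and 21.4 CPM in the same order. *Lgals3*, which encodes galectin-3, had 131, 130, 144 and 148 CPM, and *B2m*, the light chain partner of FcRn, had 4357, 4250, 4167 and 4353 CPM. *LOC498276*, chosen after its values were seen because RefSeq places its gene number as *Fcgr2al1* beside *Fcgr2a*, had 5.28, 3.90, 3.69 and 3.99 CPM and was not called (GN against control -0.36, limma adjusted p = 0.679).

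Downstream of the receptors, the calls in each list can be read against the 1.75% of all genes that limma called in GN against control. Of 32 listed genes of ITAM signalling, such as Src-family kinases, Syk and phosphoinositide 3-kinases, 29 were in the table. None was called by limma or by the quasi-likelihood test in any comparison, and in GN against control 2 had an unadjusted limma p under 0.05. DESeq2 called none in GN against control, 3 in EV+ against control (*Pik3ca*, *Pik3r5* and *Prkcd*) and 1 in EV- against control (*Lat*). The median log2 fold change of these 29 in GN against control was -0.05, with 8 positive.

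The oxidase that follows Fc receptor engagement was represented by all 6 listed subunits, and 1 of them, *Ncf1*, was called. *Ncf1* encodes p47phox, the cytosolic organizer of the phagocyte NADPH oxidase. It had 65.3 and 62.9 CPM in control, 148 and 147 in GN, 174, 157 and 160 in EV+, and 158, 135 and 155 in EV-. Every nephritic library was above both control libraries by a wide margin, and the nephritic groups lay close together. How many of all genes separate in this way was not computed. Against control, *Ncf1* rose by 1.19 on the log2 scale in GN (SE 0.0968, limma adjusted p = 3.59e-05), in EV+ by 1.34 (adjusted p = 1.64e-06) and in EV- by 1.203 (adjusted p = 6.39e-06), and it stayed called in all 3 under each alternative and without each library. The median log2 fold change of the 6 subunits in GN against control was 0.16, and all 6 were positive.

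Among 26 genes of the actin machinery of phagocytosis in the table (of 27 listed), limma and the quasi-likelihood test called 1, *Gsn*, which encodes the actin-severing protein gelsolin. It had 51.0 and 50.7 CPM in control, 69.7 and 75.4 in GN, 65.7, 75.4 and 77.8 in EV+, and 71.6, 62.7 and 69.1 in EV-. It rose in GN (0.50, limma adjusted p = 0.0480), in EV+ (0.51, adjusted p = 0.0168) and in EV- (0.41, adjusted p = 0.0683) against the same control libraries. These calls were fragile, with adjusted p-values of 0.165 and 0.416 in GN without GN replicate 1 or 2, and of 0.187 and 0.198 in GN, 0.104 and 0.144 in EV+ and 0.244 and 0.321 in EV- without control replicate 1 or 2. In EV-, the call was also lost without EV- replicate 1 (0.180) or 3 (0.160) and with the replicate block (0.119). DESeq2 called *Gsn* and also *Arf6*, a small GTPase, in EV+ and in EV- against control. Of 9 receptors in the table that pair with *Fcer1g* or *Tyrobp* (of 18 listed), limma and the quasi-likelihood test called none in any comparison and DESeq2 called none in GN against control, where 1 had an unadjusted limma p under 0.05, and it called 2 in EV- against GN (*Ncr1* and *Oscar*), 1 in EV+ against EV- (*Ncr1*) and 1 in EV- against control (*Lilra5*). *Ncr1* is also an NK cell marker of the list used here, and it had 8.70 CPM in EV- replicate 1 and 1.63 and 0.350 CPM in the other EV- libraries. DESeq2 was not run without that library.

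On the inhibitory side, all 12 listed phosphatases and adaptors that bind ITIMs and 15 of 21 other ITIM-bearing receptors were in the table, and in GN against control limma called none of either list. *Cd72*, an ITIM-bearing lectin known mainly from B cells, had 31.7 and 37.2 CPM in control, 25.2 and 23.1 in GN, 19.7, 27.6 and 26.5 in EV+, and 14.3, 16.5 and 14.0 in EV-. It fell in EV- against control (-1.15, SE 0.158, limma adjusted p = 0.00123), also without EV- replicate 1 (-1.13, adjusted p = 0.00805). Its differences between EV- and GN (limma -0.66, adjusted p = 0.162), between EV+ and EV- (0.68, adjusted p = 0.247) and between EV+ and control (-0.48, adjusted p = 0.159) were called by DESeq2 (adjusted p = 0.0183, 0.00492 and 0.0954) and not by limma. *Dok2*, an adaptor that dampens tyrosine kinase signalling, was called higher in EV- than in control (1.77, limma adjusted p = 0.0776), but EV- replicate 1, the library with the high NK and T cell markers, had 13.7 CPM and the other EV- libraries had 2.80 and 2.996 CPM. Without EV- replicate 1 it was not called (1.14, adjusted p = 0.103), nor without either control (0.320 and 0.272) or either GN library (0.120 and 0.119) or EV+ replicate 3 (0.119). In GN, *Dok2* had 3.63 and 3.39 CPM against 0.578 and 0.990 CPM in control, and this difference was called by DESeq2 and not by limma (1.35, adjusted p = 0.331).

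**Figure D4:**
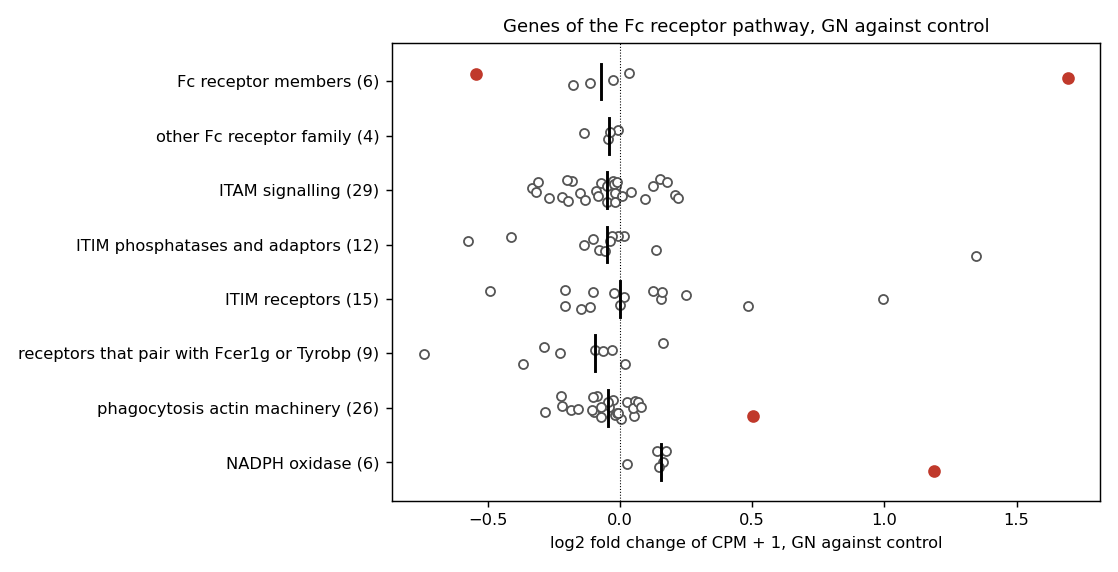
Log2 fold change of CPM + 1 between GN and control for the Fc receptors and 7 lists of related genes. Each point is a gene, filled red where limma's adjusted p was under 0.1, the black bar is the list's median, and the number in brackets is the number of genes in the table. *Fcgr2b*, *Fcgr3a*, *Gsn* and *Ncf1* are the 4 filled points, and the list medians lie between -0.09 and 0.16.

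In sorted but pooled cells, fewer cells of a type and less RNA per cell cannot be told apart, and several cell types carry Fc receptors. FcγRIIB is the Fcγ receptor of B cells, and 9 of 16 B and plasma cell markers were in the table, with a summed level of 403 to 471 CPM in control, 339 to 415 in GN, 404 to 479 in EV+ and 371 to 464 in EV-. Most of this sum was *Cd22* and *Cd79b*. *Ms4a1* had means of 0.419 in control, 0.481 in GN, 1.61 in EV+ and 0.557 CPM in EV-. The EV+ libraries thus had the highest mean of this marker. *Bank1* had means of 9.29 in control, 15.3 in GN, 17.5 in EV+ and 15.9 CPM in EV-. Limma called it higher than control in EV+ (adjusted p = 0.0180) and EV- (0.0544). In GN it was called by DESeq2 and not by limma (adjusted p = 0.139). *Cd79b* fell from 97.9 in control to 54.9 CPM in GN (limma adjusted p = 0.0331). Single B cell markers thus went both ways in GN, and their sum did not rise with *Fcgr2b*.

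NK cells carry a low-affinity activating receptor, and the NK and T cell sum ranged from 188 to 215 CPM in the control and from 110 to 129 CPM in the GN libraries. Most of this was *Klrk1*, with means of 174 in control and 94.3 CPM in GN (limma adjusted p = 0.112), and *Cd3e* was at 0 in all control and GN libraries. EV- replicate 1, with an NK and T cell sum of 861 CPM, had 1661 CPM of *Fcgr3a*, between the values of the other EV- libraries. That is a single library, and it does not bear on the difference between control and GN. The part of these transcripts in the *Fcgr3a* result was not tested.

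Markers of macrophages differed in how they varied across the groups. Of 21 macrophage markers, 16 were in the table, with a summed level of 10526 to 10953 CPM in control, 11886 to 11927 in GN, 12143 to 13205 in EV+ and 11636 to 12311 in EV-. The complement genes of resident macrophages had their highest means in GN, with *C1qb* at 4.33 in control, 9.95 in GN, 5.57 in EV+ and 3.97 CPM in EV-, and *C1qa* at 4.70, 8.06, 5.12 and 3.31 CPM, neither of them called in GN against control (limma adjusted p = 0.196 and 0.513). *Vcam1* was at 4.76, 7.43, 2.30 and 1.99 CPM, and it was called lower in EV- than in GN (limma adjusted p = 0.0406, and 0.185 or 0.466 without GN replicate 1 or 2). *Itgam*, which encodes CD11b, an antigen of the enrichment antibody, rose from 403 in control to 600 CPM in GN (limma adjusted p = 0.0126), a call that was lost without GN replicate 1 (0.165) or control replicate 2 (0.116).

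*Plvap*, the 1 gene of the table among 10 endothelial markers, had means of 94.8 in control, 173 in GN, 131 in EV+ and 75.3 CPM in EV-. It was called higher than in control in GN (limma adjusted p = 0.00829) and EV+ (0.0855, not called by the quasi-likelihood test). In EV-, it was called lower than in GN (limma adjusted p = 0.000832) and in EV+ (0.0394). Without EV+ replicate 1, limma called 0 genes in EV+ against EV-. Neutrophil markers (8 of 13 in the table) summed to 550 to 556 CPM in control, 611 to 690 in GN, 701 to 720 in EV+ and 656 to 745 in EV-, mostly *Csf3r*. Dendritic cell markers (7 of 9) summed to 341 to 399 CPM over all libraries, mostly *Cd1d1*, so the sum says little on the others. In GN against control, 6 of the 7 had a positive log2 fold change, with a median of 0.37. Of these 7, 3 had an unadjusted limma p under 0.05 and none was called. *Dnase1l3* had means of 5.36 in control and 10.2 CPM in GN (limma adjusted p = 0.372). Mast cell and basophil markers (2 of 9) summed to 15.8 to 20.9 CPM. The part of these cells or states in the *Fcgr2b* and *Fcgr3a* results was not tested.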

How the data were processed

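RNA of sorted splenic M2 macrophages was sequenced in 10 libraries of 4 groups, taken from the labels. The authors made unstranded SMART-Seq v4 and Nextera XT libraries, aligned paired-end reads to rn6 with STAR (version 2.5.3), counted them on RefSeq genes with HTSeq (version 0.6.0), dropped genes that did not reach 1 CPM in any library and applied TMM in edgeR. The deposited values are this normalized signal (TMM-normalized CPM), and 100% of them gave whole reads within 0.01 of a read. Of the symbols, 18 had been turned into dates and could not be named. Since reads carry no strand, a gene and an antisense partner cannot be told apart.

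log2(CPM + 1) was fitted with limma (version 3.58.1, R 4.3.3) over all 10 libraries with an intensity trend and 6 residual degrees of freedom, and p-values were adjusted by Benjamini-Hochberg over 9003 genes, with calls under 0.1. The recovered reads were tested with edgeR (version 4.0.16) and DESeq2 (version 1.42.0). Other alternatives were pseudocounts of 0.1 and 0.5, RLE size factors, at least 1 CPM in at least 2 libraries, no intensity trend, a replicate block, the compared groups alone and each library left out. The limma fit was also run on simulated reads in which genes were changed between GN and control only. It therefore does not bear on the other pairs of groups or on edgeR and DESeq2, and its outcome is not reported here. A chi-square per degree of freedom of 13.4 to 45.4 between replicates showed no library deposited more than once within a group. Libraries of different groups were not compared in this way.

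Genes named in the text were all members, the other Fc receptor genes of the table, up to 3 called genes of each pathway list with the lowest F-test p, the 3 genes nearest to each member by Pearson r, and markers that bear on a result. Some of the genes that this rule names are not reported here. The members and the lists were chosen with earlier results of these data known. Between an EV+ and an EV- library of the same number, residuals had an r of 0.203, 0.295 and 0.122 across genes. Pairing by number is thus possible, which rests on the data alone. The main fit did not pair the libraries, and the replicate block did. For control and GN, r was 0.0878. Promoters and gene order came from RefSeq (GRCr8), whose promoter table matched *Fcgr3a*, *Fcgr2a* and *Fcgrt*, and no genome sequence or gene coordinates of rn6 were used.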

Additional observations from a re-analysis of the deposited data

How the results depend on the processing

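The counts of called members were the same under the alternative tests, pseudocounts, size factors, low-value filter, replicate block and fits of the compared groups alone, with 60 of 63 such counts unchanged. The 3 exceptions came from limma without the intensity trend, where 1 member in place of 2 was called in GN against control, in EV+ against control and among the 4 groups, *Fcgr3a* having an adjusted p of 0.121 in GN and 0.115 in EV+ against control; the cause was not tested. With the replicate number as a block, 2 members were called in GN against control, as without it, and the block changed no call of a member. With 1 library left out, the number of members called ranged from 0 to 2 in GN against control, from 1 to 2 in EV+ against control and among the 4 groups, and it stayed at 1 in EV- against control. The direction turned, in differences that were not called, for *Fcgrt* in GN against control without control replicate 2 (0.23, range -0.28 to 0.23), for *Fcgr3a* in EV- against GN without GN replicate 2 (0.00093) or EV- replicate 3 (0.017, range -0.0924 to 0.017), for *Fcgr2b* in EV+ against GN without EV+ replicate 2 (0.0446, range -0.39 to 0.0446) and for *Fcgrt* in EV+ against EV- without EV- replicate 1 (0.0076, range -0.21 to 0.01). The log2 fold change of *Fcgr2b* in GN against control lay between 1.69 and 2.56 over the other alternatives, the highest being on reads without an added 1 CPM. The lone sample left in a group was assumed to vary like the others. At 20 and 23 reads, the control level of *Fcgr2b* is limited by counting error.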
